A study of Mus musculus with 4 samples.

Results

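The genes described here are the T cell receptor (TCR) genes of thymic invariant natural killer T (iNKT) cells. They are Trav11, Trav11d and Traj18 of the invariant alpha chain, the constant genes Trac, Trbc1 and Trbc2, and the beta chain variable genes Trbv13-1, Trbv13-2, Trbv29 and Trbv1. They were chosen by symbol and make up 10 of the 32285 genes counted, 10 of the 268 TCR genes and 4 of the 35 Trbv genes. The cells came from the thymus of mice 6 to 8 weeks old, were sorted as CD3+ cells that bind a CD1d tetramer after magnetic enrichment, and were put through the 10x Genomics 3′ kit, version 3.1. WT mice (2 libraries, WT 1 and WT 2) were compared with ACC1 KO mice (2 libraries, ACC1 KO 1 and ACC1 KO 2), which lack acetyl-CoA carboxylase 1, an enzyme of fatty acid synthesis encoded by Acaca. The sources used here give neither the allele or Cre behind the deletion nor whether a library held the cells of 1 animal, so the tests below measure only the spread between libraries.

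An iNKT cell carries an almost fixed alpha chain, made by joining Trav11 (older name Vα14) to Traj18 (Jα18), and pairs it with a beta chain drawn from few families. In mice these are mainly the Vβ8 family (the Trbv13 genes), Vβ7 (Trbv29) and Vβ2 (Trbv1). The pair recognises glycolipids shown by CD1d, which is how the tetramer finds these cells. Thymic iNKT cells are commonly divided into an early stage (iNKT0) and effector subsets that resemble helper T cells making interferon gamma (iNKT1), interleukin 4 (iNKT2) or interleukin 17 (iNKT17). In the spliced receptor mRNA the variable region lies at the 5′ end and the constant region at the 3′ end, next to the poly(A) tail from which a 3′ library is primed.

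The files held 5499, 9927, 6416 and 8613 barcodes for WT 1, WT 2, ACC1 KO 1 and ACC1 KO 2 (the order of every set of 4 values below), with 29066597, 72803841, 33205137 and 74190167 unique molecular identifiers (UMIs), and 102 barcodes occurred in more than 1 library. Filtering and clustering left 27068 iNKT cells (4625, 9020, 5614 and 7809), with medians of 4651, 6219, 4481 and 7342 UMIs per cell, so both libraries numbered 2 were deeper than both numbered 1. Xist was at 586 and 652 counts per 1000000 UMIs of the summed cells (CPM) in the libraries numbered 2 and below 1 CPM in those numbered 1, where Ddx3y was at 81.9 and 77.0 CPM. Acaca was at 33.3, 31.4, 47.0 and 60.1 CPM; 3′ counts do not show whether a deleted part upstream is missing. No TCR gene was used for clustering. Clusters named from markers gave 20010 iNKT1-like, 1211 iNKT2-like, 1121 cycling, 2501 interferon-responding, 351 iNKT0-like, 217 iNKT17-like and 1657 unnamed iNKT cells, the last led by Klra receptor genes. Beside them stood 570 cells like CD4+ CD8+ double-positive (DP) thymocytes, which serve below as cells with a diverse receptor, and 544 B cell-like cells, which serve as cells without one. Cluster 11, the iNKT2-like cells, scored 3.302 for iNKT2, 2.511 for cycling and 1.398 for iNKT0 markers. Cycling clusters 8 and 15 scored 1.997 and 5.508 for cycling markers. The iNKT2-like class was thus named from its highest score and was not free of cycling or early-stage signal. Clustering at resolution 0.5 gave no iNKT2-like class. How many iNKT2-like cells were cycling was not tested.

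The exons below, from GENCODE transcripts on GRCm38 (mm10) and all on the plus strand, show which members a short read can tell apart. The first pair makes the invariant alpha chain and is shown because the joining gene is so short. The whole of Traj18 is 66 bases (chr14:54200777-54200842), and of Trav11 the last part of the V exon is given (chr14:53519739-53519858):
Traj18: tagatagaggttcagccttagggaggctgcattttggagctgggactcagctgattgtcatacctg
Trav11: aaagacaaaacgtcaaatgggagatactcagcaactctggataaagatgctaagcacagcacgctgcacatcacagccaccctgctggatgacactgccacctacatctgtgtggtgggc
Trav11d, 694.39 kb upstream, is identical to Trav11 over all 290 aligned bases of the V exon and over the 52 bases of the leader exon, so a read inside these exons fits both genes equally. All values of Trav11 below carry this limit, and how many of its reads went uncounted was not tested.

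The beta constant genes lie 6.848 kb apart and are shown over the part of exon 1 that holds their single difference, in capitals (Trbc1 at chr6:41538447-41538506, Trbc2 at chr6:41546959-41547018):
Trbc1: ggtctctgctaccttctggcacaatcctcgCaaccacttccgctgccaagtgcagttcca
Trbc2: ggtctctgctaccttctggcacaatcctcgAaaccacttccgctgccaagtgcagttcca
Exon 1 differs at 1 of 375 bases, exon 3 is 86.0% identical and the last exon is 57.3% identical, so these genes are told apart mainly by reads from their 3′ ends.

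For the beta variable genes, the end of the V exon is shown, with the bases of Trbv13-1 that differ from Trbv13-2 in capitals (Trbv13-2 at chr6:41121713-41121832, Trbv13-1 at chr6:41116349-41116468, Trbv29 at chr6:41271762-41271881):
Trbv13-2: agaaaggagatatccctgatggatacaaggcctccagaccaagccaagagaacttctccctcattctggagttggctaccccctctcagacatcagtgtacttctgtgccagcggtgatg
Trbv13-1: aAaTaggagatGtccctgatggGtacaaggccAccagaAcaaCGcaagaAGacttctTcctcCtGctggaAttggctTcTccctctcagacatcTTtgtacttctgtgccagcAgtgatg
Trbv29: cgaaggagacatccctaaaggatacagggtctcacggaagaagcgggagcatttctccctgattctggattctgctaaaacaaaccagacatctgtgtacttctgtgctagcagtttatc
Over the V exon Trbv13-2 shares 88.8% of aligned bases with Trbv13-1, 91.8% with Trbv13-3, 62.2% with Trbv29 and 49.3% with Trbv1. The longest run shared by Trbv13-2 and Trbv13-1 is 31 bases and by Trbv13-2 and Trbv29 is 14 bases.

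Trbc2 and Trac were found in most iNKT cells, Trbc1 in fewer, and joining and variable genes in few. Trbc2 had a UMI in 96.4, 96.8, 95 and 97.5% of iNKT cells, Trac in 93.7, 95.7, 87.1 and 94.1%, and Trbc1 in 56.9, 59.0, 60.1 and 62.2%. Traj18 was seen in 5.47, 9.43, 4.04 and 10.0% of cells, and Trav11 in 2.10, 3.36, 1.34 and 3.51%. Both invariant segments were seen in a larger share of cells in the deeper libraries numbered 2, whatever the genotype.

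Of the beta variable genes, Trbv13-2 was detected in 4.11, 4.63, 4.72 and 4.61% of iNKT cells. Trbv29 was detected in 3.48, 2.78, 3.31 and 3.19%, Trbv13-1 in 1.54, 1.84, 1.48 and 2.13%, and Trbv1 in 1.47, 1.49, 1.82 and 1.77%. Trav11d gave 4 UMIs in all, 2 in each WT library and 0 in both ACC1 KO libraries, where a count of 0 (taken as at most 3 cells) allows up to 0.0534 and 0.0384% of cells. In the B cell-like cells, at a median of 4230 UMIs, Trbc2 was seen in 6.43%, Trac in 4.78%, Trbc1 in 3.12% and Traj18 in 0.368%, and Trav11 in 0 of 544. Any of the 35 Trbv genes was seen in 1.29% of B cell-like cells against 17.3% of iNKT cells.

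Detection followed depth. In iNKT cells with 1000 to 2000 UMIs, Trac was found in 61.8% and any Trbv gene in 11.1%; with 16000 or more these shares were 99.2 and 44.4%. Traj18 went from 3.86 to 15.6% and Trbv13-2 from 1.93 to 12.4% between the same bins. When every cell was thinned to 2000 UMIs (leaving out shallower cells), the mean share over the 4 libraries was 80.9% for Trbc2, 66.7% for Trac, 47.4% for Trbc1, 2.33% for Traj18 and 0.864% for Trav11. The thinned shares were 1.55% for Trbv13-2, 0.996% for Trbv29, 0.578% for Trbv1 and 0.492% for Trbv13-1. Per 1000 UMIs of the beta constant genes there were 17.5 UMIs of all Trbv genes together, and per 1000 UMIs of Trac there were 22.2 of Traj18 and 7.83 of Trav11.

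**Figure D1:**
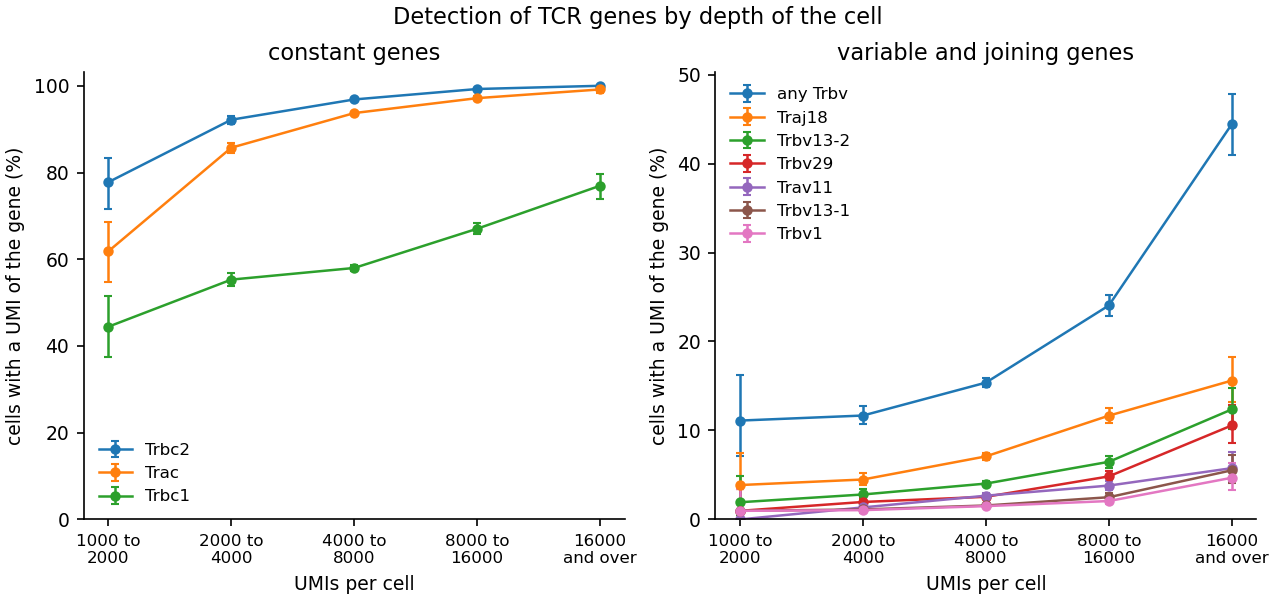
Percent of iNKT cells with a UMI of each gene (y axis) by UMIs per cell (x axis, bins), all 4 libraries pooled, with 95% Clopper-Pearson intervals that cover counting error only; constant genes on the left, joining and variable genes on the right. Trbc2 reached 100% in cells with 16000 or more UMIs, while any Trbv gene reached 44.4%.

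Few cells showed both segments of the invariant chain. Trav11 or Traj18 was seen in 10.2% of the 27068 iNKT cells and both in 102 cells. Of cells with Trav11, 13.6% also had Traj18, against 7.65% of cells without Trav11. Cells with both numbered 7, 43, 6 and 46 in the 4 libraries, more in those numbered 2, which were deeper and held more cells.

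Among all alpha chain segments the invariant ones led without being alone. Of 3529 Trav UMIs in iNKT cells, spread over 81 genes, Trav11 took 22.8%, a share that may be too low because its exons match those of Trav11d. Of 5460 Traj UMIs, Traj18 took 41.8%, the 16 joining genes downstream of it (towards Trac) took 39.7%, and the 43 upstream took 18.5% (95% Clopper-Pearson interval 17.5 to 19.6%). Traj18 took 35.7, 42.4, 35.9 and 45.6% of the Traj UMIs of the 4 libraries, so the split went with the replicate number and not with the genotype.

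The next joining genes were Traj12 with 1291 UMIs, 5.776 kb downstream of Traj18, Traj27 with 615, upstream of it, Traj4 with 231 and Traj15 with 230. On the chromosome with the invariant join, a joining gene downstream of Traj18 is still present, whereas one upstream is removed by the join. Counts per gene do not tell that chromosome from the other copy, and the source of the upstream UMIs was not tested. The DP-like cells had the opposite order in 80 Traj UMIs, with 60% upstream (48.4 to 70.8%), 28.8% downstream and 11.3% at Traj18. DP-like cells gave 118 Trav UMIs, none of them from Trav11.

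**Figure D2:**
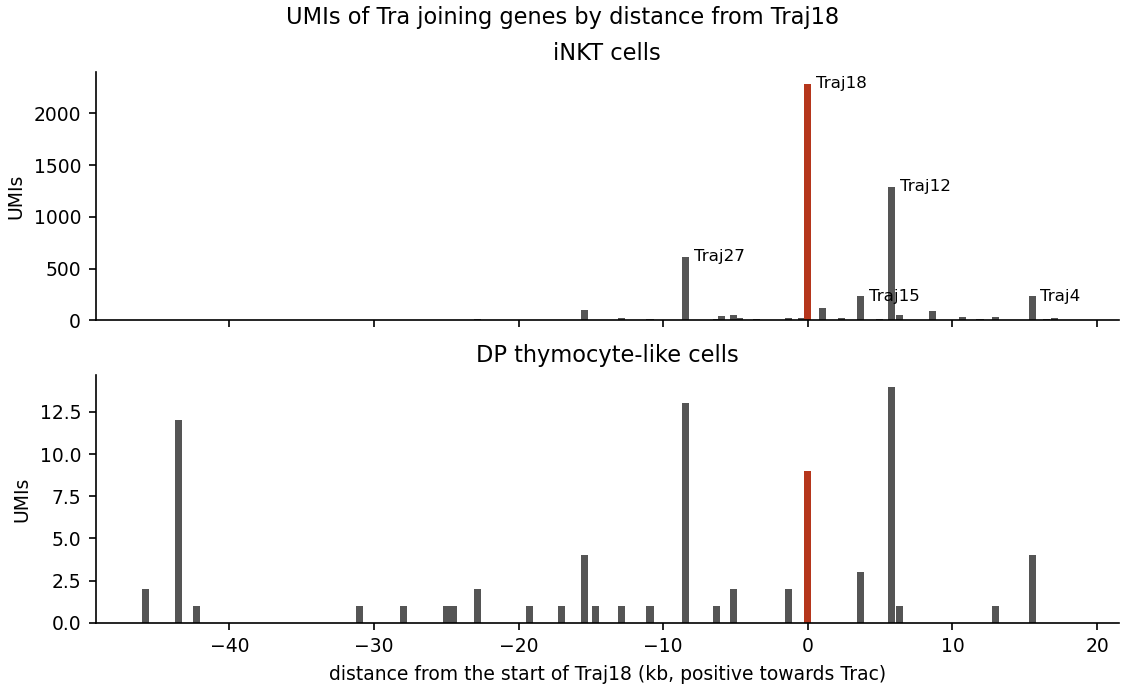
UMIs of each Traj gene (y axis) by its distance from Traj18 in kb (x axis, positive towards Trac), iNKT cells above and DP-like cells below, pooled over libraries; Traj18 is drawn in red. In iNKT cells Traj18 stands highest with 2283 UMIs and Traj12 second with 1291, while the DP-like UMIs lie mostly upstream of Traj18.

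Vβ choice was read from the 4373 iNKT cells (16.2%) with UMIs of exactly 1 Trbv gene. In 90.7% of them the call rested on a single UMI, and a further 322 cells had UMIs of 2 or more Trbv genes. Trbv13-2 took 23.7% of the cells with 1 Trbv gene, Trbv12-2 22.5%, Trbv29 18.1%, Trbv13-1 10.5%, Trbv1 9.47% and Trbv13-3 4.41%. The 4 member genes together took 61.8% (60.3 to 63.2%) of these cells, and 24 Trbv genes were seen at all. The inverse Simpson index, the number of equally used genes that would give the same diversity, was 6.15.

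The DP-like cells spread far more widely over the Trbv genes. Among 193 of them with 1 Trbv gene, the 4 members took 19.7% (14.3 to 26.0%), the inverse Simpson index was 15.1, and the most frequent gene, Trbv19, took 10.9%. The intervals of the members' share in iNKT and DP-like cells did not overlap. They pool libraries and cover counting error only, and this difference was not tested over libraries. Trbv12-2 is not a gene of the Vβ8 family, yet it was nearly as frequent in iNKT cells as Trbv13-2, whose start lies 2.031 kb downstream of its end.

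Trbv12-2 and Trbv13-2 were also the pair most often seen in 1 cell. They made up 134 of the 305 cells with exactly 2 Trbv genes (43.9%). Of 1233 cells with Trbv13-2, 147 also had Trbv12-2 (11.9%, 10.2 to 13.9%), against 4.04% of cells without Trbv13-2. Trbv13-2 cells had Trbv29 in 1.05% and Trbv13-1 in 0.324%, against 3.23 and 1.87% of cells without Trbv13-2, so Trbv12-2 was the one gene of these found more often beside Trbv13-2. The V exons of Trbv12-2 and Trbv13-2 share 50.2% of aligned bases, with a longest common run of 18. Whether the Trbv12-2 UMIs came from transcripts rearranged to Trbv12-2 was not tested, so shares that count it as a choice of its own are uncertain. The share of cells with 2 or more Trbv genes, among cells with any, was 6.79, 7.21, 7.10 and 7.01% in the cells kept and 3.45, 7.39, 8.99 and 13.6% in those called doublets.

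Both beta constant genes were found together in most cells. UMIs of both Trbc1 and Trbc2 were seen in 57.2% of iNKT cells, Trbc2 alone in 39.4%, Trbc1 alone in 2.61% and neither in 0.813%. A T cell's beta chain uses only 1 of them, so in cells with UMIs of both, presence of a UMI did not assign the constant gene. Trbc1 made up 38.2, 38.5, 38.8 and 39.0% of the Trbc UMIs of the 4 libraries and 39.3% in the DP-like cells, and over the pooled iNKT classes it ran from 36.9% in cycling to 39.8% in iNKT0-like cells.

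The first comparison asked whether loss of ACC1 went with a change in receptor expression or Vβ use. None of the 9 members tested passed the test between ACC1 KO and WT over all iNKT cells. Trac, the alpha constant gene, was at 673, 635, 529 and 472 CPM, so both ACC1 KO libraries lay below both WT libraries, which was also true of 19.3% of all genes tested (11.5% had both above). Its log2 fold change was -0.34 ± 0.16 (SE) with an adjusted p of 1.0 in edgeR's quasi-likelihood test with Benjamini-Hochberg adjustment, and the CPM of ACC1 KO 1 against WT 1 and of ACC1 KO 2 against WT 2 differed by -0.35 and -0.43 (log2). In iNKT1-like cells alone, Trac was at 711, 673, 566 and 511 CPM (log2 fold change -0.27 ± 0.16, adjusted p 1.0). There 0 of 9 members passed in either tool, where edgeR called 0.00737% of 13575 genes higher and 0 lower and DESeq2 0.519 and 0.16%, and 23.6% of genes had both ACC1 KO libraries lower and 7.4% both higher.

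The beta constant genes overlapped between genotypes. Trbc1 was at 732, 673, 730.4 and 649.8 CPM, and Trbc2 at 1185, 1077, 1154 and 1017 CPM. For both genes the libraries numbered 2 were the lower ones in each genotype, and the log2 fold changes were 0.02 ± 0.17 and -0.01 ± 0.18. Traj18 was at 11.3, 14.5, 8.22 and 13 CPM, and Trav11 at 4.30, 5.12, 2.79 and 4.50 CPM, with the lower value of each genotype in the library numbered 1.

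The beta variable genes also ran with the replicate number. Trbv13-2 was at 8.59, 7.11, 10.1 and 5.96 CPM, and Trbv29 at 7.88, 4.46, 7.38 and 4.45 CPM. Trbv13-1 was at 3.16, 2.83, 3.38 and 3.04 CPM, and Trbv1 at 3.37, 2.36, 3.86 and 2.52 CPM. In each of these 4 genes both libraries numbered 1 were above both numbered 2. Over the 9 members, 0 passed the threshold (adjusted p under 0.05) in edgeR, 0 had an unadjusted p under 0.05 and 0 passed in DESeq2. Over all genes tested, 1 of 14738 genes was called higher in ACC1 KO (0.00679%) and 0 lower, while DESeq2 called 0.519% higher and 0.259% lower. These tests leave out the replicate number, which went with depth and with the sex-linked genes Xist and Ddx3y. With the number as a block, a pairing that the labels do not give, edgeR called 1583 genes. Trac then had the lowest adjusted p of the members, 0.0543. The small count without the block is therefore no measure of how few genes differ.

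**Figure D3:**
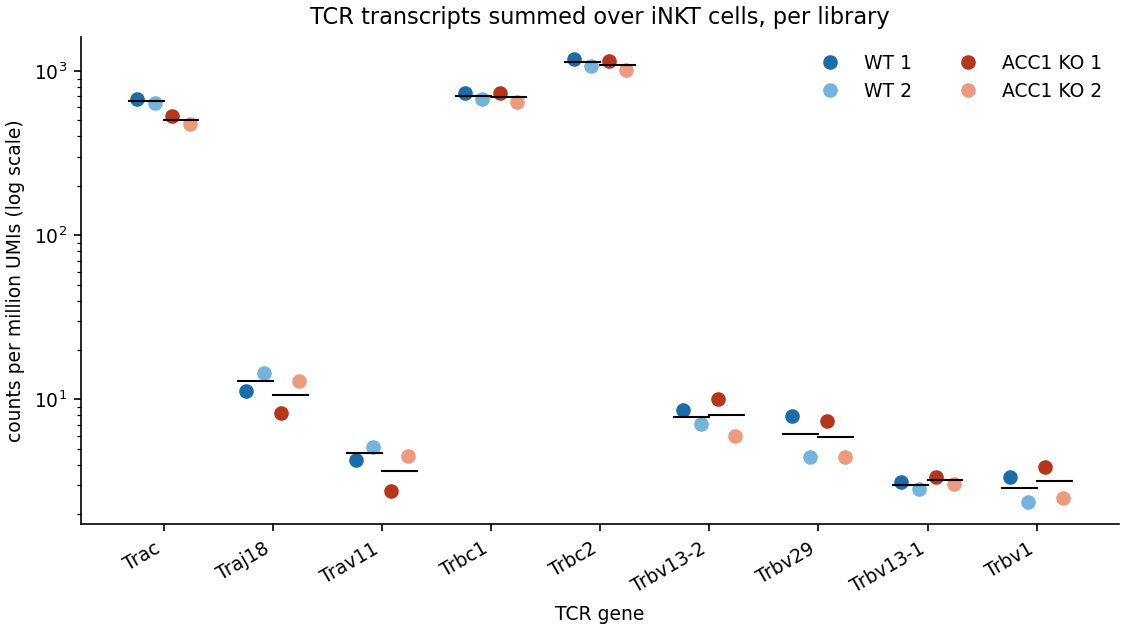
Level of each member over all iNKT cells in CPM (y axis, log scale), 1 point per library, WT and ACC1 KO side by side, with bars at the genotype means. The libraries of the 2 genotypes overlap for every member drawn except Trac, whose ACC1 KO libraries (529 and 472 CPM) lie below the WT libraries (673 and 635 CPM).

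Among the 4 members, shares overlapped between genotypes except for Trbv1. Among cells with 1 Trbv gene, Trbv13-2 took 22.0 and 25.5% in WT and 24.6 and 22.2% in ACC1 KO, Trbv29 20.2 and 17.3% against 18.5 and 17.6%, and Trbv13-1 8.84 and 11.5% against 8.26 and 12.0%. Trbv1 took 8.71 and 9.31% in WT and 10.0 and 9.70% in ACC1 KO, so for this gene alone both ACC1 KO libraries were above both WT libraries. The differences in mean share (ACC1 KO minus WT) were -0.362 percentage points for Trbv13-2, -0.0497 for Trbv13-1, -0.72 for Trbv29 and 0.84 for Trbv1. The exact two-sided permutation test over libraries gave p = 1, 1, 1 and 0.333, where 0.333 is the smallest p that 2 against 2 libraries allow. With 4 genes compared, no difference could have passed the threshold in this design.

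Receptor genes differed between the iNKT classes. In iNKT2-like against iNKT1-like cells, 3 of the 9 members tested rose (Trbc1, Trbc2 and Trbv29) and 3 fell (Trac, Trav11 and Traj18), where 33.5% of 11181 genes were called higher and 31.1% lower, so 6 of 9 is near the share of all genes. DESeq2 called 6 members too, with 33% of genes higher and 28.8% lower. Since no TCR gene entered the clustering, the classes were not built on these counts, though genes that vary with them were. The iNKT2-like cells were deeper (median 11679 UMIs against 5680), and their cluster scored 2.511 for cycling markers. The part of this cycling signal in the class differences was not tested. The iNKT1-like cells fell into the clusters unequally by genotype. Clusters 0, 4 and 10 held 28.6, 20.3 and 26.2% of those in WT and 16.8, 7.46 and 18.3% in ACC1 KO, and clusters 6 and 7 held 10.6 and 4.94% in WT and 28.3 and 21.1% in ACC1 KO.

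Trbv29, the Vβ7 gene, was the beta variable gene that rose. It was at 7.78, 3.73, 5.89 and 3.33 CPM in the iNKT1-like cells of the 4 libraries and at 13.5, 13.1, 16.5 and 10.9 CPM in their iNKT2-like cells. The lowest iNKT2-like value was above the highest iNKT1-like value, and the log2 fold change was 1.47 ± 0.18 (adjusted p 3.3e-09, edgeR). Trbv13-2 was at 8.89, 6.86, 10.0 and 5.94 CPM in iNKT1-like cells and at 7.39, 9.76, 10.8 and 6.07 CPM in iNKT2-like cells, and did not pass the test (0.10 ± 0.16, adjusted p 0.596). Trbv13-1 (0.22 ± 0.29, adjusted p 0.534) and Trbv1 (-0.22 ± 0.31, adjusted p 0.552) did not pass either.

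The constant genes moved in opposite directions in CPM. Trbc2 was at 1102, 1005, 1010 and 904 CPM in iNKT1-like cells and 1842, 1872, 1936 and 1620 CPM in iNKT2-like cells (0.83 ± 0.05, adjusted p 5.9e-17). Trbc1 went from a mean of 649 to 1078 CPM (0.71 ± 0.06, adjusted p 2.4e-13). Trac was at 711, 673, 566 and 511 CPM in iNKT1-like and 423, 386, 382 and 366 CPM in iNKT2-like cells (-0.67 ± 0.06, adjusted p 3.3e-13), so every iNKT2-like library was below every iNKT1-like library while both beta constant genes were above.

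As a part of all UMIs, the invariant segments fell together with Trac, as they also did in cycling cells (values below). Per cell, with libraries pooled, Trac had 3.73 UMIs in iNKT1-like, 4.94 in iNKT2-like and 5.90 in cycling cells. In the same order Traj18 had 0.0833, 0.0991 and 0.113 UMIs per cell and Trav11 0.0302, 0.0297 and 0.0464. The fall is thus relative to the larger total of these deeper cells. Traj18 was at 12.0, 15.8, 8.61 and 13.9 CPM in iNKT1-like cells and 4.92, 4.18, 8.24 and 9.58 CPM in iNKT2-like cells (-0.87 ± 0.17, adjusted p 2.4e-05), lower in 4 of 4 libraries, as were 30.2% of all genes (34.3% were higher in 4 of 4). Trav11 went from 4.41, 5.69, 3.11 and 5.07 to 3.08, 2.51, 1.27 and 2.43 CPM (-1.09 ± 0.25, adjusted p 0.000192). The iNKT2-like Traj18 values were lower in WT (4.55 ± 0.525 CPM, SD, n = 2) than in ACC1 KO (8.91 ± 0.949), but the test of that difference in class effect, 1.23 ± 0.35 on the log2 scale, missed the threshold (adjusted p 0.0964, edgeR). No member passed this interaction test, in which 72 of 11181 genes did; 1 member, Traj18, had an unadjusted p under 0.05, as did 1196 genes.

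**Figure D4:**
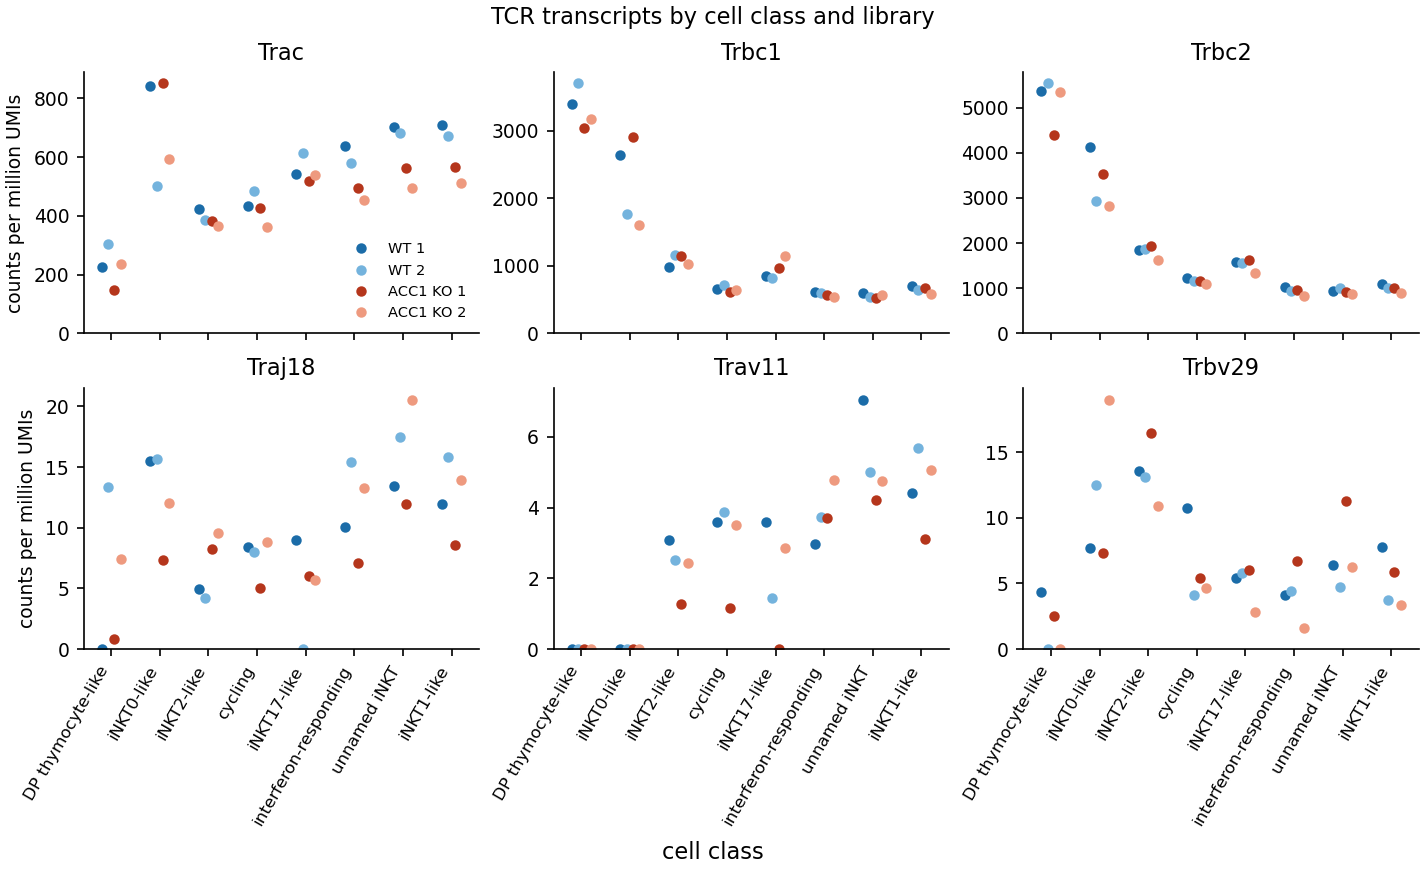
Levels in CPM (y axis) of Trac, Trbc1, Trbc2, Traj18, Trav11 and Trbv29 in 8 cell classes (x axis), 1 point per library. Trac is lower and Trbc1, Trbc2 and Trbv29 are higher in iNKT2-like than in iNKT1-like cells in 4 of 4 libraries, and Trav11 is at 0 in all libraries of the DP-like and iNKT0-like cells.

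Expressed as Vβ choice, Trbv29 took 21.2, 15.9, 16 and 14.3% of the iNKT1-like cells with 1 Trbv gene. Of the iNKT2-like cells it took 29.6% (16 of 54), 40.9% (27 of 66), 31.1% (37 of 119) and 32.9% (55 of 167). The share was higher in iNKT2-like cells in 4 of 4 libraries, with means of 16.8 ± 2.98% and 33.6 ± 5.03% (SD, n = 4) and a difference of 16.8 ± 6.91 percentage points. The exact two-sided sign-flip permutation test gave p = 0.125, the smallest that 4 libraries allow, so this test cannot pass the threshold whatever the size. The class difference was 16.7 percentage points in WT and 16.8 in ACC1 KO.

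The other members had lower or overlapping shares. Trbv13-2 had a mean share of 24.5 ± 1.68% in iNKT1-like and 17.3 ± 7.75% in iNKT2-like cells and Trbv1 of 9.78 and 5.49%, both lower in 4 of 4 libraries (exact permutation p = 0.125 for each). Trbv13-1 went from 10.5 to 9.25%, lower in 2 of 4 libraries (exact permutation p = 0.75). Shares add up to a whole, so a lower share of Trbv13-2 stood beside a level that did not pass the test between classes. The 4 members together took 61.8% of cells with 1 Trbv gene in iNKT1-like and 65.5% in iNKT2-like cells, and the inverse Simpson index was 6.08 and 5.23.

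**Figure D5:**
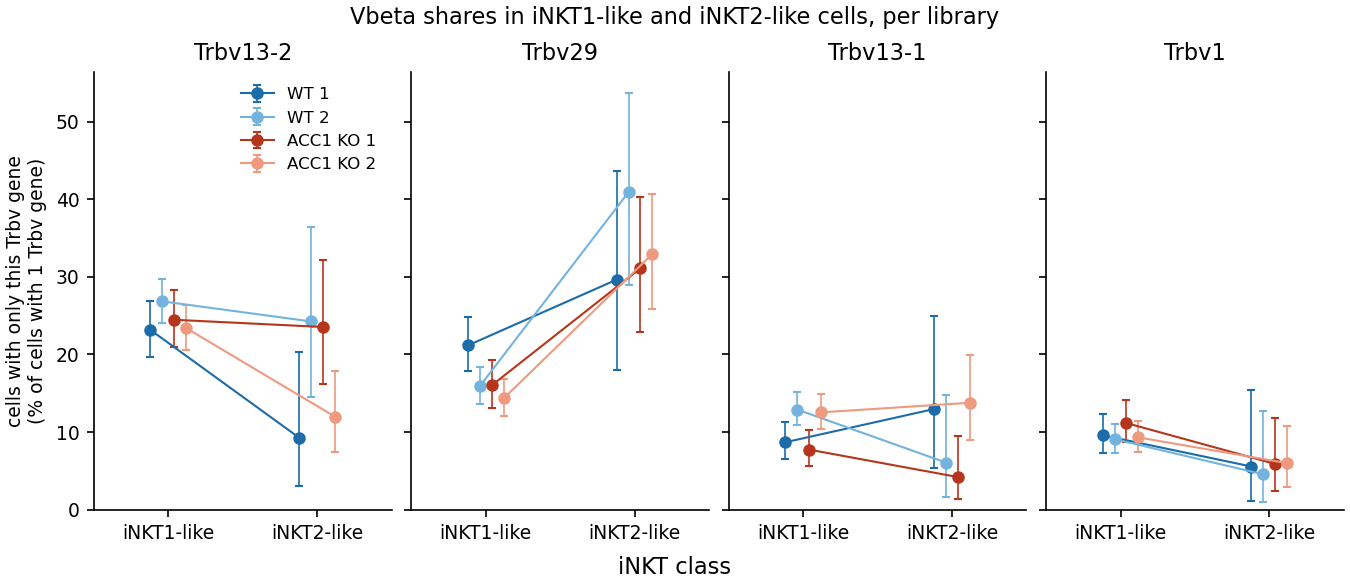
Share of Trbv13-2, Trbv13-1, Trbv29 and Trbv1 (y axis, percent) among iNKT1-like and iNKT2-like cells with 1 Trbv gene, 1 panel per gene; lines join the classes of 1 library and bars are 95% Clopper-Pearson intervals for counting error. The Trbv29 lines rise in 4 of 4 libraries, from 14.3 to 21.2% up to 29.6 to 40.9%.

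The share of Trbv29 varied within the iNKT1-like class too. Cluster 2, led by Izumo1r, Egr3 and Maf, had 30% of 180 cells with Trbv29 (23.4 to 37.3%), near the 33.3% of 406 iNKT2-like cells. The largest iNKT1-like cluster by such cells, cluster 0, had 11.3% of 776, and clusters 4, 10, 6 and 7 had 20.9, 18.6, 16 and 12.2%. The unnamed cells led by Klra genes had 24.3% of 226 and the interferon-responding cells 13.3% of 353. These shares pool libraries and are a description.

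The remaining iNKT classes were compared with iNKT1-like cells in the same fit. In cycling cells, where 27.8% of genes were higher and 32.4% lower, Trac (-0.60 ± 0.06, adjusted p 1.1e-11, edgeR), Traj18 (-0.89 ± 0.17, adjusted p 2.0e-05) and Trav11 (-0.68 ± 0.23, adjusted p 0.00922) fell, and Trbc2 rose by 0.12 ± 0.05 (adjusted p 0.0397). None of the 9 members passed in interferon-responding cells (background 5.59% higher and 5.73% lower), where Trac came nearest (-0.15 ± 0.06, adjusted p 0.0855), nor in the unnamed cells (background 1.35% higher and 2.07% lower), where Traj18 (0.40 ± 0.16, adjusted p 0.201), Trbv29 (0.55 ± 0.24, adjusted p 0.277) and Trbc1 (-0.14 ± 0.06, adjusted p 0.250) had unadjusted p under 0.05. In iNKT17-like cells, with 24 to 81 per library and no test, Trac was at 543, 614, 520 and 539 CPM, and the 4 members took 64.2% of 53 cells with 1 Trbv gene, Trbv13-1 20.8% (10.8 to 34.1%).

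The iNKT0-like cells, named from markers of the early stage, entered an alternative fit with at least 40 cells per library, since WT 2 had 47 of them. Trbc1 rose by 1.41 ± 0.13 and Trbc2 by 1.37 ± 0.07 over iNKT1-like cells, and Trbv13-1 (1.61 ± 0.50, adjusted p 0.00786, edgeR) and Trbv29 (1.05 ± 0.42, adjusted p 0.0389) rose too, where 20.2% of genes were higher and 24.1% lower. Those Trbv values rest on 19 and 20 UMIs, and Trbv13-1 ran from 3.45 to 22.0 CPM between libraries. Among cells with 1 Trbv gene, Trbv29 took 15 of 105 iNKT0-like and 480 of 2916 iNKT1-like cells, so its level rose without a higher share. Trbc1 was at 2640, 1759, 2903 and 1606 CPM in the 4 libraries. Trac (-0.16 ± 0.10, adjusted p 0.179) and Traj18 (-0.44 ± 0.34, adjusted p 0.306) did not pass. Trav11 had 0 UMIs in 351 cells, which allows up to 0.855% of cells with a UMI; against the floor of 3 counts over the class (1.91 CPM), it was at least 2.57-fold lower than the 4.92 CPM of the iNKT1-like cells. Traj18 was seen in 5.13% of iNKT0-like cells. Vβ use was wider here, with 56.2% (46.2 to 65.9%) of 105 cells taken by the 4 members and an inverse Simpson index of 9.24. At the iNKT1-like level, 7.71 UMIs of Trav11 would have been counted in this class. Its cluster scored 3.98 for iNKT0 markers and 1.98 for DP markers. Whether all of these cells were iNKT cells was not tested.

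The DP-like cells gave the receptor genes outside the invariant lineage, since thymocytes at this stage are assembling diverse alpha chains. They pooled cluster 12 (391 cells at 0.385 times the median depth of their libraries) and cluster 16 (179 cells at 2.09 times). Their scores for cycling markers were 0.31 and 6.10. The deeper cycling cells weigh more in the sums below, and how many of them had a rearranged alpha chain was not tested. Of 16 genes of receptor assembly, 14 were called higher than in iNKT1-like cells and 1 lower; the list holds Rag1 and Rag2, which cut the receptor loci, and other markers that named the cluster, so this is a description. Trbc1 was at 3388, 3703, 3035 and 3168 CPM (2.0 ± 0.19, adjusted p 1.3e-11, edgeR), and Trbc2 at 5374, 5548, 4403 and 5356 CPM (2.01 ± 0.20). Trac was at 226, 305, 147 and 235 CPM, below every iNKT1-like library (-1.82 ± 0.18). In all 2 members were called higher and 4 lower of 9 tested, against 24% and 28.9% of 11938 genes, and DESeq2 called 6, against 21.2 and 24.7% of genes. Over all genes 37.5% were higher and 23.9% lower in 4 of 4 libraries.

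The invariant segments were low or unseen in DP-like cells. Trav11 had 0 UMIs in 570 cells, which allows up to 0.526% of cells; against the floor of 3 counts (1.02 CPM) it was at least 4.81-fold lower than in iNKT1-like cells. Traj18 was at 0, 13.4, 0.853 and 7.40 CPM, high only in the libraries numbered 2 where the DP-like cells were fewest (70 and 86), with a log2 fold change of -2.18 ± 0.47 (adjusted p 0.000164). Traj18 was found in 1.58% of DP-like cells and 0.368% of B cell-like cells, at medians of 2504.5 and 4230 UMIs. Trbv29 was at 4.33, 0, 2.56 and 0 CPM (-1.60 ± 0.56, adjusted p 0.0148), while Trbv13-2 (-0.04 ± 0.35), Trbv1 (0.13 ± 0.51) and Trbv13-1 (0.98 ± 0.47, adjusted p 0.0774) did not pass.

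Cells with Trbv29 were then compared with cells with Trbv13-2 in the genes outside the TCR loci. Of 9072 genes, 86 (0.948%) were higher and 75 (0.827%) lower in the 793 Trbv29 cells than in the 1036 Trbv13-2 cells, and 1048 had an unadjusted p under 0.05. DESeq2 gave an adjusted p to only 1685 of the genes, and called 22 (1.31%) of these higher and 40 (2.37%) lower. Of all 9072 genes, 9.89% were higher and 9.25% lower in 4 of 4 libraries. The count was 13 without ACC1 KO 2 and 38 without WT 2. The makeup of the groups moved with the result: 17.0% of Trbv29 cells and 6.66% of Trbv13-2 cells were iNKT2-like, their median depths were 6981 and 6498.5 UMIs, and within iNKT1-like cells alone 8 genes were called. Cells with Trbv13-1 or Trbv1 gave 0 calls against Trbv13-2 cells in edgeR (450 and 572 genes at an unadjusted p under 0.05; DESeq2 was not run on them).

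The higher genes with the smallest p are given next. Icos, a costimulatory receptor, was at 313, 202, 240 and 175 CPM in the Trbv13-2 cells of the 4 libraries and at 416, 335, 362 and 334 CPM in their Trbv29 cells (0.68 ± 0.08, adjusted p 3.4e-08, edgeR). Izumo1r, which encodes folate receptor 4, rose from a mean of 64.5 to 142 CPM (1.21 ± 0.13, adjusted p 5.3e-06), and Cd4, the coreceptor for class II molecules, from 35.8 to 59.7 CPM (0.84 ± 0.14). Ccr10, a chemokine receptor, rose by 1.30, Cntnap1 by 1.66, Nipal1 by 1.57, Ephx1 by 0.90, Airn by 0.82 and Ext1 by 0.63 on the log2 scale. Of the genes in this paragraph, only Icos had an adjusted p from DESeq2 (6.9e-10).

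The lower genes were chosen in the same way. Nkg7, a granule protein gene, went from 936 to 706 CPM (-0.44 ± 0.08), Ly6c2 from 844 to 662 CPM (-0.36 ± 0.06), Klrc1, an NK receptor, from 65.3 to 44.1 CPM (-0.64 ± 0.12) and Slamf7 from 117 to 86.4 CPM (-0.54 ± 0.11). Gramd3 was at 262, 240, 216 and 234 CPM in Trbv13-2 cells and 162, 110, 97.1 and 113 CPM in Trbv29 cells (-1.02 ± 0.15, adjusted p 0.00514). Rcbtb2, Fgl2, Txnip, Ust and St8sia1 were lower by between 0.39 and 0.66 on the log2 scale. DESeq2 gave no adjusted p for Klrc1 and St8sia1.

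The gene with the smallest p was Gm12840, a long intergenic noncoding RNA gene on chromosome 4 (117700188 to 117700923, plus strand). It was at 3.26, 9.23, 10.2 and 8.14 CPM in Trbv13-2 cells and 50.6, 33.2, 39.4 and 46.2 CPM in Trbv29 cells (2.29 ± 0.21, adjusted p 9.5e-11, edgeR), with no overlap between groups. DESeq2 gave this gene no adjusted p. In iNKT1-like cells alone it rose by 2.60 ± 0.26 (adjusted p 7.2e-14). Its transcript shares at most 8 bases in a row with that of Trbv29 on the same strand and 9 on the opposite strand. Gramd3 (-0.69, adjusted p 5.3e-09) and Izumo1r (0.92, adjusted p 0.000934) were also among the 8 genes called in iNKT1-like cells, while Icos was not (0.18, adjusted p 0.992). The 161 genes had a median absolute log2 fold change of 0.50 over all iNKT cells, and 131 of them had a value within iNKT1-like cells. Of these 131, 119 had the same sign and 5 were called, with a median absolute log2 fold change of 0.18. The 161 were chosen in a fit that held the same iNKT1-like cells. Agreement in sign and a smaller size are therefore no separate result.

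Other genes of the receptor complex were followed through the same comparisons. Between ACC1 KO and WT, 0 genes of the lists of constant genes, CD3 complex and coreceptors, proximal signalling, signal reporters, subset regulators and receptor assembly passed in edgeR. Cd4 averaged 21.5 ± 1.03 CPM without and 47.6 ± 3.01 CPM with the deletion (SD, n = 2; log2 fold change 1.2 ± 0.13, adjusted p 0.199 in edgeR and 1.2e-07 in DESeq2). The gamma chain constant genes Tcrg-C2 (-1.12, adjusted p 0.415 in edgeR and 0.00024 in DESeq2) and Tcrg-C4 (-0.93, 0.343 and 0.00031) were called lower by DESeq2 alone, and Cd3e (-0.42) and Cd3g (-0.38) did not pass in either tool. These values are over all iNKT cells, whose makeup differed. The iNKT2-like share was 3.39 and 2.33% in WT and 6.36 and 6.24% in ACC1 KO. For iNKT17-like cells it was 1.75 and 0.876% against 0.428 and 0.423%. The part of makeup in these changes was not tested.

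Between iNKT2-like and iNKT1-like cells these lists hold genes that took part in clustering and naming, so their values describe the classes, and their counts stand beside 33.5% of all genes higher and 31.1% lower. Of 8 CD3 complex and coreceptor genes tested, 6 were higher and 1 lower, with a median log2 fold change of 0.54 against 0.01 over all genes, including Cd4 (1.85) and Cd5 (1.36), a receptor that tracks TCR signal strength. Of 20 proximal signalling genes 6 were higher and 10 lower (median -0.11), with Sh2d1a, the SAP adaptor, at 1.02 and the phosphatase genes Ptpn22 at -1.84 and Ptprc at -0.97. Of 14 signal reporters 8 were higher and 6 lower (median 0.64), with Irf4 at 3.79 and Egr2 at 1.91.

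Between Trbv29 and Trbv13-2 cells, which were not grouped by these genes and where 0.948% of all genes were higher and 0.827% lower, 3 of 8 CD3 complex and coreceptor genes rose (Cd4, Cd5 by 0.37 and Cd28 by 0.28, adjusted p under 0.05 in edgeR) and 0 fell, with a median of 0.15. Of 20 proximal signalling genes 0 rose and 3 fell (Ubash3a, a negative regulator of TCR signals, by -0.60, Grap2 by -0.37 and Ptpn22 by -0.31), with a median of 0.00 as over all genes tested. Of 14 signal reporters 3 rose (Egr3 by 0.98, Egr1 by 0.63 and Cd5) and 1, Cd69, fell (-0.42). Of 13 subset regulators 3 rose (Zbtb16, which encodes PLZF, by 0.68, Tcf7 by 0.39 and Gata3 by 0.32) and 1, Runx3, fell (-0.31), and of 9 assembly genes 0 passed. As given above, 17.0% of Trbv29 cells and 6.66% of Trbv13-2 cells were iNKT2-like. Within iNKT1-like cells alone, the 8 genes called in edgeR included none of those named in this paragraph, and Cd4 was at 0.55 (adjusted p 0.870). How much of the list counts came from the class makeup was not tested.

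The genes whose pattern was most like the members were sought over 20 sums (5 classes in 4 libraries, which share their library and depth) among 6048 genes, by Pearson's r of log2(CPM + 5). Trac was most like Apbb1ip (0.93), Otulinl (0.92) and Lpar6 (0.92). Trbc1 was most like Rgs10, Glrx2 and Syne1 (0.94 each), and Trbc2 most like Icos (0.97), Rgs10 (0.96) and Atxn10 (0.96). Trbv29 was most like Mrpl43 (0.92), Snx4 (0.92) and Arhgap1 (0.90), and Trbv13-2 most like Dok2 (0.86), Bnip2 (0.80) and Rab7 (0.79), the lowest of the 5 members compared.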

How the data were processed

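UMI counts per gene and barcode from 4 thymic iNKT libraries were deposited by the authors, made with Cell Ranger 7.0.0 on mm10 per the submitters' processing notes. Barcodes below 500 genes or 1000 UMIs, or with 10% or more of their UMIs from mitochondrial genes, were dropped, and 0.8% per 1000 barcodes were removed as doublets by a simulated-doublet score (scikit-learn 1.9.0). The remaining cells were clustered (scanpy 1.11.5, 2000 variable genes without TCR genes, 30 principal components, 15 neighbours, Leiden resolution 1) into 20 clusters, named from marker lists. The limits that decide a name were set with these data in view, so another naming could move cells between classes.

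UMI sums per library, per class (where each library had 50 or more of its cells, 20 for DP-like cells), or per Trbv group were tested with edgeR 4.0.16 (R 4.3.3; TMM, filterByExpr, robust quasi-likelihood F test; library as a term where groups share libraries) over all genes tested, with DESeq2 1.42.0 as the alternative. Shares were compared with exact permutation tests over libraries (scipy 1.17.1). CPM is per 1000000 UMIs of the summed cells, and the sums over iNKT cells held 23.7, 63.9, 28.7 and 65.8 M UMIs. Clopper-Pearson intervals and the floor of 3 counts cover counting error only.

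On simulated data the tests recovered 35.4 and 79.6% of 2-fold and 4-fold changes between genotypes (14469 genes), 18.6 and 74% between genotypes in iNKT1-like cells (13376 genes), 91.9 and 99.0% between iNKT2-like and iNKT1-like cells (10814 genes), 60.9 and 87.6% for DP-like cells (11388 genes) and 89.9 and 99.0% between Trbv groups (8918 genes), with 17, 9, 13, 7 and 14 false calls.

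Exons and positions were read from GENCODE transcripts and annotation of GRCm38, the same build as mm10. The genes named were the members, Trbv genes with at least 3% of cells with 1 Trbv gene, the 5 Traj genes with most UMIs, up to 4 genes per list with the smallest p, up to 10 per direction in the Trbv comparison, and the 3 genes most like each of 5 members (mean of at least 20 CPM). The members and lists were chosen with earlier results of these data known. Alternatives covered the tool, filter, normalization, doublets, resolution, cell minimum, thinning, Trbv calls and each library left out.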

Additional observations from a re-analysis of the deposited data

How the results depend on the processing

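The number of genes called between ACC1 KO and WT depended on the processing: 1 in all iNKT cells became 108 with DESeq2, 361 with no filter on low counts, 0 with every barcode and 21 to 153 with 1 library left out, and 1 in iNKT1-like cells became 85 with DESeq2 and 2 to 45 with 1 library left out. Replicate numbers do not pair the samples in the labels; with the number as a block the counts were 1583 and 1146, Trac had an adjusted p of 0.0543 (edgeR), and same-numbered libraries deviated together (r = 0.688). The 161 genes between Trbv29 and Trbv13-2 cells became 62 with DESeq2, 289 with no filter, 3 with at least 2 UMIs of the Trbv gene, 8 in iNKT1-like cells only, and 13 to 241 with 1 library left out. The counts for iNKT2-like and DP-like against iNKT1-like cells stayed within 1.5 times in 13 of 13 alternatives each, and the Trbv29 share difference between classes stayed above 0, from 9.37 (thinned to 2000 UMIs) to 36.3 (at least 2 UMIs); resolution 0.5 gave no iNKT2-like class. Thinned to 4000 UMIs, detection was 94.1% for Trbc2, 85.8% for Trac, 56.2% for Trbc1, 4.32% for Traj18, 3.0% for Trbv13-2, 2.21% for Trbv29, 1.67% for Trav11, 1.07% for Trbv1 and 1.05% for Trbv13-1.

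Small differences changed sign. For shares, ACC1 KO minus WT: Trbv13-2 was 0.0447 with at least 2 UMIs and -2.07 to 1.35 with 1 library left out; Trbv13-1 was 5.74 with at least 2 UMIs, 0.816 as a share of Trbv UMIs, 2.54 thinned, 0.0188 without Trbv12-2 and -1.90 to 1.80 with 1 library left out; Trbv29 was -2.16 to 0.718 with 1 library left out; Trbv1 was -1.31 with at least 2 UMIs. Between classes, Trbv13-1 was -3.04 to 0.665 with 1 library left out. For log2 fold changes of ACC1 KO against WT with 1 library left out, the ranges were -0.625 to 0.0786 for Traj18 (0.02 without WT 2), -0.0339 to 0.0941 for Trbc1, -0.0751 to 0.0674 for Trbc2 (0.0153 without WT 1, 0.0446 with every barcode), -0.31 to 0.40 for Trbv13-2 (-0.01 without WT 2), -0.37 to 0.40 for Trbv29 (-0.33 without WT 2) and -0.0876 to 0.487 for Trbv1. Between iNKT2-like and iNKT1-like cells they were -0.48 to 0.44 for Trbv13-1 and -0.0771 to 0.152 for Trbv13-2. Between DP-like and iNKT1-like cells, Trbv13-2 was -0.32 to 0.32 (0.12 at resolution 0.5), and Trbv1 -0.0591 to 0.46 (-0.0133 without ACC1 KO 1, -0.0111 with doublets kept, -0.0022 with no filter). None of these passed a test, and the cause was not tested. Depth limits the variable genes most, since nearly all Vβ calls rest on 1 UMI.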

Other observations

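Other receptor segments also had uneven use. Trbj2-7 gave 401 of the 716 Trbj UMIs in iNKT cells (56.0%). Trav14d-3-dv8, chosen after its values were seen, was at a mean of 0.777 CPM in iNKT1-like and 3.55 CPM in iNKT2-like cells (log2 fold change 2.15 ± 0.30, adjusted p 5.4e-08, edgeR), while Traj12 and Traj27, which with Traj18 were the 3 joining genes tested, fell by 0.65 and 0.69 on the log2 scale. In the DP-like cells with 1 Trbv gene, Trbv19 was followed by Trbv12-2 with 9.84%, Trbv12-1 with 9.33%, Trbv13-2 with 8.81% and Trbv31 with 7.77%.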
